A study of Mus musculus with 4 samples.

Results

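The genes described here are 10 surface proteins by which mesenchymal stromal cells are commonly recognised: Eng, Thy1, Nt5e, Cd44, Vcam1, Pdgfra, Pdgfrb, Mcam, Alcam and Cspg4. They were taken by name from the gene annotation of the arrays, leaving out control spots, which gave 10 of 34821 gene names and 15 of 55681 probes. All 10 genes and all 15 probes passed the filter on dim signals and were tested.

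Gene expression was measured on 4 one-colour Agilent mouse arrays, 2 for islet-like clusters and 2 for islets of Langerhans. All RNA came from pancreata of male Swiss albino mice aged 10 to 12 weeks, pooled in groups of 2 to 4. Nothing in the labels ties the arrays of a group to different pools, and the p-values therefore cover the variation among these 4 arrays alone, which may be technical variation. The islets were rinsed out of the flasks after the collagenase digest had stood for 48 h in 10% serum. Their titles place them in culture for 48 h and their descriptions call them freshly isolated. The clusters were made from the fibroblast-shaped cells that stayed attached, which were passaged in the same serum medium and which the labels call MSC-like. These cells were moved to low-adherence dishes in serum-free medium with albumin and insulin, transferrin and selenium for 10 days. Taurine was added at 0.3 mM on day 3, and on day 7 the clusters received 3 mM taurine, 100 mM nicotinamide and the incretin peptide GLP-1. The attached cells before induction were not analysed here, so the comparison sets clusters against islets and does not follow the markers through induction.

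Mesenchymal stromal cells are the plastic-adherent, fibroblast-shaped cells of connective tissue, and they are usually defined by a surface profile: endoglin (CD105, Eng), Thy1 (CD90) and the ecto-5'-nucleotidase CD73 (Nt5e) present, haematopoietic antigens absent. The platelet-derived growth factor receptors Pdgfra and Pdgfrb mark fibroblasts and mural cells, and CD44, VCAM1, MCAM (CD146), ALCAM (CD166) and the proteoglycan NG2 (Cspg4) are adhesion molecules of stroma or of pericytes. In the pancreas such cells surround acini, ducts and vessels and enter culture from a tissue digest, and several of the markers are shared with endothelium, ducts or islet cells.

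On the cluster arrays 6 of the 10 genes were higher than on the islet arrays: Thy1, Pdgfra, Pdgfrb, Nt5e, Eng and Vcam1, by 4.47-fold to 184-fold. Cspg4 was lower by 2.50-fold, and Cd44, Mcam and Alcam did not pass the test. Over all 24596 genes tested, 54.8% were called by the same rule (limma, Benjamini-Hochberg adjusted p under 0.05), 26.6% higher and 28.2% lower in clusters. The median log2 difference was 2.21 over the 10 genes and -0.10 over all genes. The values of clusters and islets did not overlap for 8 of the 10 genes, which is close to the 79.9% of all genes for which this held. Every level below is the log2 processed signal of a probe minus the 75th percentile of its array, so 0 stands for the signal of that percentile, and every difference is clusters minus islets. In each of the 16 alternative processings the 6 higher genes stayed called in that direction.

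**Figure D1:**
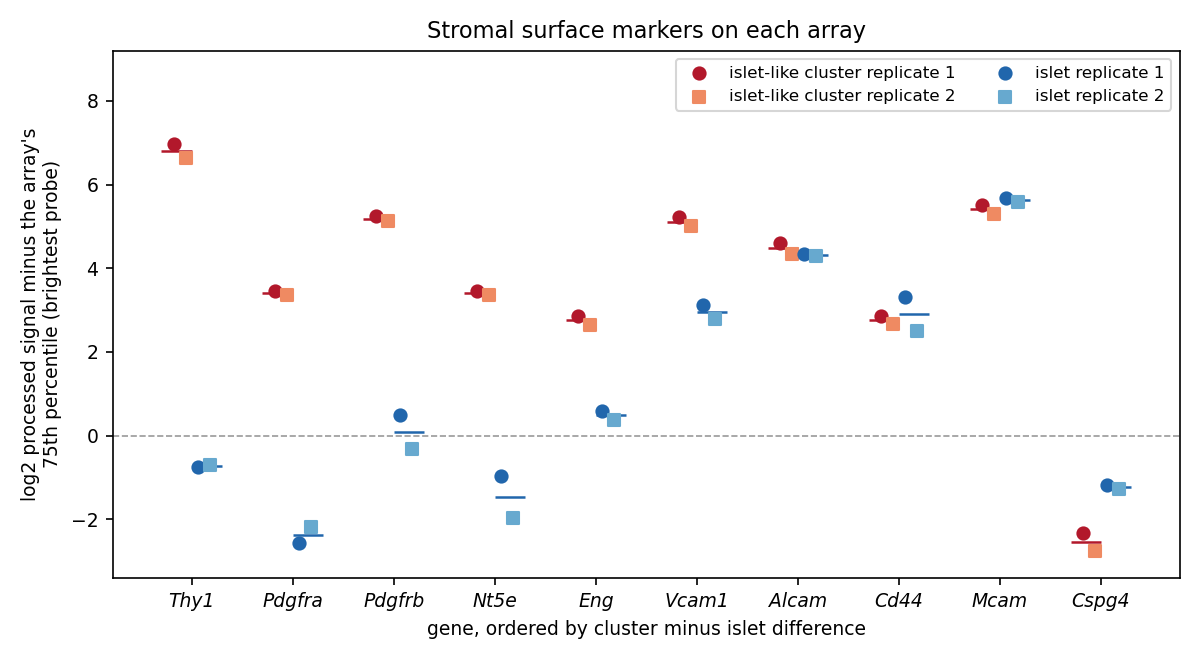
Levels of the 10 genes on each of the 4 arrays, as log2 processed signal minus the array's 75th percentile for the brightest probe of each gene, with short lines at the group means and genes ordered by the difference. Thy1 stands at 6.98 and 6.63 in clusters and at -0.75 and -0.69 in islets. For each of Alcam, Cd44 and Mcam the group means lie close together, while the islet arrays of Cd44 stand at 3.30 and 2.49.

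Where a gene had several probes the clusters and islets did not always differ alike along the transcript. Of the probes this concerns, 2 of Cd44 and 1 of Mcam are shown first, beside a Vcam1 probe for comparison. Each is 60 bases long and is given 5′ to 3′ in the sense of its transcript. The first pair are Cd44 probes at positions 1777 and 1965 of the transcript (mm9 chr2:102677971-102678030 and chr2:102672645-102672704, minus strand), the next is an Mcam probe at position 1858 (chr9:43949385-43949444, plus strand), and the last is a Vcam1 probe at position 842 (chr3:115828953-115829012, minus strand), whose gene gave the same direction with both of its probes. The files give these positions and no exon for them.
Cd44, position 1777: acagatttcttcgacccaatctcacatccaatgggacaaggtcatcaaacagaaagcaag
Cd44, position 1965: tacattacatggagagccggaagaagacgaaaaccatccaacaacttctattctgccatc
Mcam, position 1858: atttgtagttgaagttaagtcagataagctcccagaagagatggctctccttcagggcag
Vcam1, position 842: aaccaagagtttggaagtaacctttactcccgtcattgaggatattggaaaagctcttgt

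Upstream sequence was at hand for 7 of the 10 genes (Eng, Nt5e, Cd44, Pdgfra, Mcam, Alcam and Cspg4; RefSeq, GRCm38.p6), and Eng, Nt5e and Pdgfra are shown because they were the genes among these 7 that were higher in clusters. The 250 bases before the annotated start are printed in the direction of the gene, at chr2:32646345-32646594 for Eng, chr9:88327359-88327608 for Nt5e and chr5:75152001-75152250 for Pdgfra, all on the plus strand. Capitals mark matches to the GC box GGGCGG on either strand, and TATAAA and CCAAT were searched as well, also on both strands and with overlaps counted.
Eng: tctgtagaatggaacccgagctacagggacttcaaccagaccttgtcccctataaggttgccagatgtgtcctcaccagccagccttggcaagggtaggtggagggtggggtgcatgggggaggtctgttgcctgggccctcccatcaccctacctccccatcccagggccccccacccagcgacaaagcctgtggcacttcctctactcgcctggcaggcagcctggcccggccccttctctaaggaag
Nt5e: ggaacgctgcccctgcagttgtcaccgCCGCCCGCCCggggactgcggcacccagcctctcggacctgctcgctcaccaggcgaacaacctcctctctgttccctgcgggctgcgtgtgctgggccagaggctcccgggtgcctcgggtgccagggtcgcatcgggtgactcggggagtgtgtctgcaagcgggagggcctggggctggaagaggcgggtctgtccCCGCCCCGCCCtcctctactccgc
Pdgfra: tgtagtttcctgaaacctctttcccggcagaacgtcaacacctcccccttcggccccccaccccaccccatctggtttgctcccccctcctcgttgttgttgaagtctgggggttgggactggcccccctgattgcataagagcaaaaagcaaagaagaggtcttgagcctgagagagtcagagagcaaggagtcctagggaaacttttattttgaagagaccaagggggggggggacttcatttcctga
The window of Nt5e held 4 matches to GGGCGG, in overlapping pairs, and those of Eng and Pdgfra held none. GGGCGG was present in 4 of the 7 windows (Nt5e, Mcam, Alcam and Cspg4), against 32.7% of 32851 windows of the same length. CCAAT was present in 1 of 7 (Alcam), against 33.8%, and TATAAA in 0 of 7, against 12.4%. These are letters found in a window, not sites shown to be bound.

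The 3 defining markers, Thy1, Nt5e and Eng, were all higher in clusters, with differences that ranged from 2.27 to 7.53 on the log2 scale. Thy1 encodes a small glycolipid-anchored immunoglobulin-family protein of fibroblasts, neurons and T cells. Its level was 6.98 and 6.63 in clusters and -0.75 and -0.69 in islets. Both cluster values lay far above both islet values, a difference of 7.53 ± 0.24 (SE, n = 2 arrays per group; limma adjusted p = 1.81e-08), or 184-fold. Only 96 of the 24596 genes (0.39%) had a larger difference upward. The arrays of a group differed by 0.35 between clusters and by 0.06 between islets.

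Nt5e encodes the membrane enzyme that turns extracellular AMP into adenosine. It was measured at 3.46 and 3.35 in clusters and at -0.96 and -1.98 in islets. The cluster arrays were nearly alike, and the islet arrays differed by 1.02, which is the widest gap between islet arrays among the representative probes of the 10 genes. The difference was 4.88 ± 0.33 (SE; limma adjusted p = 1.77e-06), or 29.4-fold. With normexp background correction it was 4.24, and it lay between 4.37 and 5.39 when single arrays were left out.

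Eng encodes endoglin, a co-receptor for ligands of the TGF-beta and BMP family that is abundant on endothelium as well as on stromal cells. Its levels were 2.87 and 2.64 in clusters and 0.59 and 0.38 in islets. The groups were clearly apart, by 2.27 ± 0.24 (SE; limma adjusted p = 3.59e-05), or 4.82-fold, and 8.50% of all genes had a larger difference upward. Endothelial markers went the other way on these arrays. All 10 of the endothelial list (Pecam1, Cdh5, Kdr, Tek, Tie1, Emcn, Robo4, Esam, Plvap and Sox18) were lower in clusters, and Cdh5, Tek, Tie1, Emcn, Robo4 and Sox18 were not well above background on either cluster array. The summed level of the list, in units of the array's 75th percentile signal, was 4.03 and 3.29 in clusters against 24.7 and 24.1 in islets. The arrays hold bulk RNA, so fewer cells of a type and less RNA per cell cannot be told apart.

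By level over the arrays, the genes most like these 3 markers were found from the distance between centred values on the 4 arrays, among 20770 genes detected on all of them. The nearest to Eng were Thbs3, a thrombospondin of the extracellular matrix (distance 0.03), and the zinc finger gene Zfp760 (0.034). The nearest to Thy1 was an array transcript without a gene symbol (0.147), followed by Nnmt, which methylates nicotinamide (0.18). For Nt5e they were Mmp10, a matrix metalloproteinase (0.133), and Map6, a microtubule-associated protein (0.147). With 4 arrays in 2 groups, such a distance mostly records the size of the difference between groups.

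The receptors for platelet-derived growth factor were both higher in clusters. Pdgfra, whose product is the alpha receptor of fibroblasts and their progenitors, was at 3.45 and 3.36 in clusters and at -2.57 and -2.17 in islets. Its probe was printed 10 times on each array, and the processed signals of these spots varied by 2.53%, 3.50%, 5.01% and 4.01% (CV) on cluster replicates 1 and 2 and islet replicates 1 and 2. The replicate spots on islet replicate 1 ran from 52.2 to 60.4 signal units and those on cluster replicate 2 from 3655 to 4156, so the spread within an array was small beside the gap between groups. A single spot on cluster replicate 1 read 1130 against 3423 to 3731 for the other 9, and it was left out because the extraction software marked it as non-uniform. The difference was 5.77 ± 0.24 (SE; limma adjusted p = 8.26e-08), or 54.6-fold, and 4.75 with normexp background correction.

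Pdgfrb, the beta receptor of pericytes and activated fibroblasts, was at 5.24 and 5.13 in clusters and at 0.49 and -0.31 in islets. All values in clusters exceeded all values in islets, by 5.10 ± 0.29 (SE; limma adjusted p = 6.07e-07), or 34.3-fold. The islet arrays differed from each other by 0.80 and the cluster arrays by 0.11.

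Of the 4 genes for PDGF ligands, 1 was higher and 3 were lower in clusters. Pdgfc, whose product binds the alpha receptor, was at 3.48 and 3.83 in clusters and at -1.01 and -1.33 in islets, a difference of 4.82 ± 0.25 (SE; limma adjusted p = 3.11e-07). Pdgfb, whose product binds both receptors and is a signal from endothelium to pericytes, was at -2.18 and -2.81 in clusters and at 3.72 and 4.10 in islets. It was thus lower in clusters, by -6.40 ± 0.28 (SE; limma adjusted p = 1.08e-07), and the value was -5.50 with normexp background correction and -5.21 as a mean of its probes. Pdgfa, also a ligand of the alpha receptor, was lower by -1.87 ± 0.25 (SE; limma adjusted p = 0.000212). Pdgfd was not well above background on either cluster array and was lower by at least 3.55-fold, a call that was lost with normexp background correction (adjusted p = 0.0759). Both receptors and Pdgfc were thus higher on the arrays on which Pdgfa and Pdgfb were lower.

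The adhesion molecules split into Vcam1, which was higher in clusters, and Cd44, Mcam and Alcam, whose representative probes did not pass the test. Vcam1 encodes a cytokine-inducible ligand of alpha-4 integrins found on bone marrow stroma and activated endothelium. Its brighter probe, at position 3060, gave 5.23 and 5.01 in clusters and 3.13 and 2.78 in islets. The groups did not overlap, and the difference was 2.16 ± 0.24 (SE; limma adjusted p = 6.32e-05), or 4.47-fold. The probe at position 842, printed above, gave 2.08 and 1.77 in clusters against -0.58 and -0.43 in islets, a difference of 2.43 ± 0.24 (SE; adjusted p = 8.02e-05 in the limma fit over all probes). Both Vcam1 probes were higher in clusters, and the ratio of one to the other within an array changed by 0.27 (95% interval -0.39 to 0.92; limma adjusted p = 0.409 over 10378 pairs of probes of a gene).

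**Figure D2:**
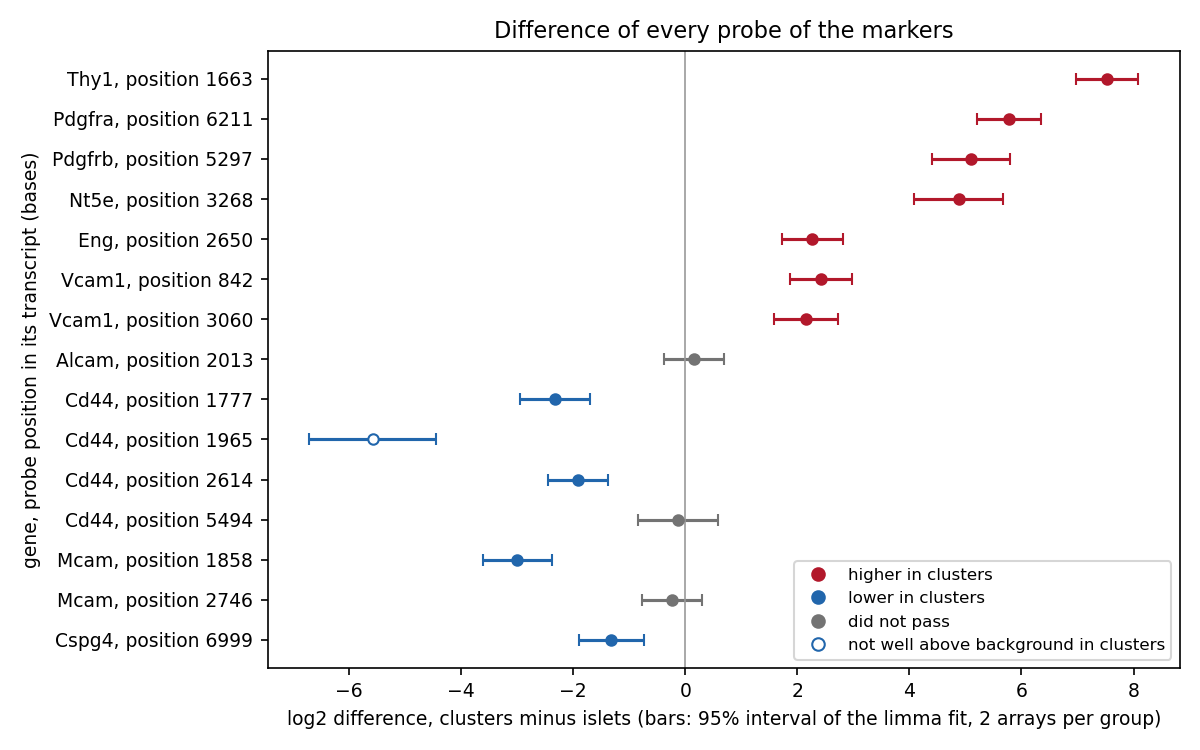
Log2 differences, clusters minus islets, for all 15 probes of the 10 genes, labelled by their position in the transcript, with 95% intervals of the limma fit from 2 arrays per group. The Vcam1 probes lie together at 2.16 and 2.43, while the 4 Cd44 probes spread from -5.58 to -0.13 and the 2 Mcam probes from -3.00 to -0.23; the open symbol marks the probe that was not well above background on the cluster arrays.

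Cd44 encodes the main hyaluronan receptor, whose RNA carries a block of variable exons in its middle that are included or skipped by alternative splicing. Its 4 probes did not change alike. The probe at position 5494, the brightest and nearest the end of the transcript, read 2.87 and 2.68 in clusters and 3.30 and 2.49 in islets. The groups overlapped there, with a difference of -0.13 ± 0.30 (SE; limma adjusted p = 0.743) and a 95% interval of -0.80 to 0.55. The sign of this difference turned with scaling to the array median (0.07) and when islet replicate 1 was left out (0.28). As the mean of its probes the gene was called lower, at -2.48.

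The other 3 Cd44 probes were all lower in clusters. At position 2614 the levels were 1.61 and 1.54 in clusters against 3.58 and 3.40 in islets, a difference of -1.91 ± 0.23 (SE; adjusted p = 0.000235 in the limma fit over all probes), or 3.77-fold. At position 1777, the first of the printed sequences, they were -1.95 and -2.39 against 0.36 and -0.05, a difference of -2.32 ± 0.27 (SE; adjusted p = 0.000198), or 5.01-fold. The probe at position 1965 read 0.06 and -0.51 in islets, and on neither cluster array was it well above background. Its difference was at least 28.3-fold. The measured difference of -5.58 became -2.40 with normexp background correction, which is short of this bound. It was -4.77 without cluster replicate 2 and -6.39 without cluster replicate 1. Of all 34974 probes tested 26.8% were called lower and 26.4% higher in clusters.

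Whether these probes differed from each other was tested on their ratio to the brightest probe within each array, over 10378 pairs of probes of a gene, of which 36.8% were called in either direction and 19.4% lower in clusters. For position 1777 the log2 ratio to position 5494 was -4.82 and -5.06 in clusters and -2.94 and -2.54 in islets. The ratio was lower in clusters by -2.20 ± 0.22 (SE; limma adjusted p = 0.00834), and it stayed called when each array was left out in turn. The probe at position 1965 has only a bound in clusters, and with dim signals raised to the floor its ratio was lower there by at least 4.70 on the log2 scale. The measured change was -5.45 ± 0.56 (SE; adjusted p = 0.00892), and it was -2.28 with normexp background correction, which is short of this bound. The call was lost without islet replicate 1 or 2 (adjusted p = 0.0567 and 0.063). For position 2614 the change was -1.79 ± 0.27 (SE; adjusted p = 0.0187), and the call was lost without cluster replicate 1 (adjusted p = 0.0558). Relative to the probe nearest the end of the transcript, the signal at positions 1777, 1965 and 2614 was thus higher on the islet arrays. Every ratio here has position 5494 as its reference. Positions 2614 and 5494 (mm9 chr2:102654278-102654337 and chr2:102651398-102651457) are as far apart on the genome as in the transcript. No splice junction of this transcript therefore lies between them. The part of splicing in any of these ratios was not tested. The differences at positions 1777 and 2614 were close, at -2.32 and -1.91, and the ratio between those probes was not tested. The ratio test was chosen after the values of the Cd44 probes had been seen.

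**Figure D3:**
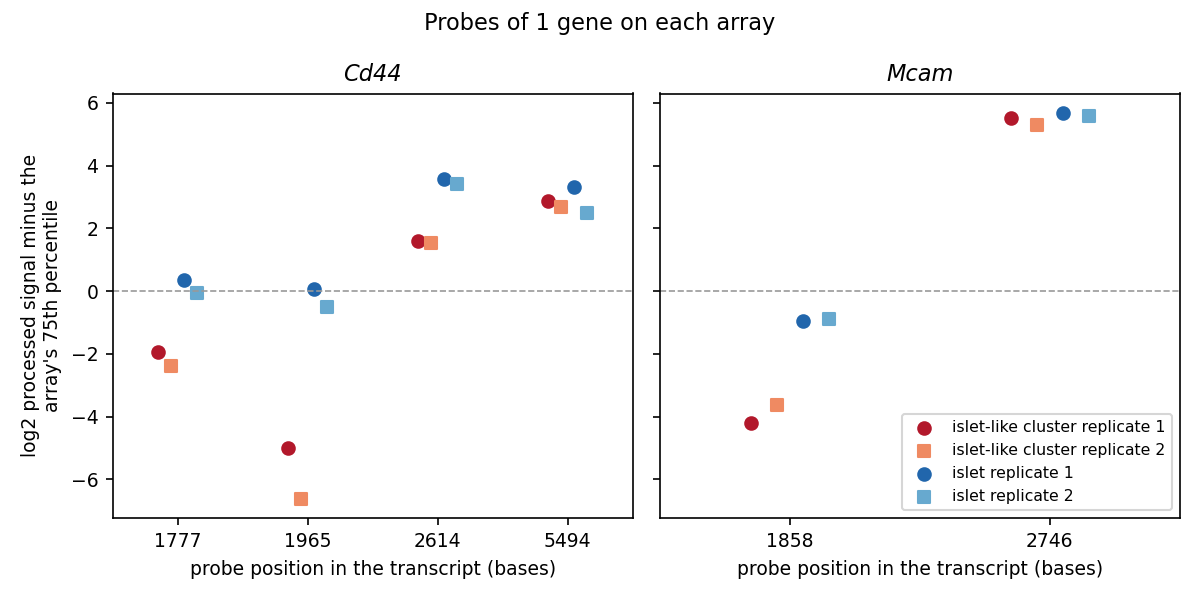
Levels of the 4 Cd44 probes and the 2 Mcam probes on each array, as log2 processed signal minus the array's 75th percentile, in the order of their position in the transcript (not to scale). The groups overlap at Cd44 position 5494 and stand apart at positions 1777, 1965 and 2614; at Mcam position 2746 all arrays lie between 5.30 and 5.68, and at position 1858 the cluster arrays lie at -4.21 and -3.64, below the islet arrays at -0.95 and -0.90. Levels of different probes are not comparable with each other.

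Mcam encodes CD146, a cell adhesion molecule of endothelium, pericytes and some stromal cells. Its brighter probe, at position 2746, gave 5.51 and 5.30 in clusters and 5.68 and 5.59 in islets. The cluster values were a little below the islet values, but the difference of -0.23 ± 0.23 (SE; limma adjusted p = 0.422; 95% interval -0.75 to 0.29) did not pass. It was called lower (-0.42, adjusted p = 0.0298) when arrays were scaled over probes detected on all arrays, and at -1.61 as the mean of its probes. The printed Mcam probe at position 1858 gave -4.21 and -3.64 in clusters against -0.95 and -0.90 in islets, a difference of -3.00 ± 0.27 (SE; adjusted p = 4.42e-05 over all probes), or 7.98-fold. With normexp background correction it was -1.44. Within an array, the ratio of this probe to the brighter one was lower in clusters by -2.77 ± 0.32 (SE; limma adjusted p = 0.0113), and that call was lost without islet replicate 1 or 2 (adjusted p = 0.0629 and 0.0702).

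Alcam encodes CD166, an immunoglobulin-family adhesion protein that binds CD6 and itself and is found on stromal cells and many epithelia. Its single probe spans a splice junction (its ends lie at chr16:52268908-52270785 of mm9, minus strand). It read 4.61 and 4.34 in clusters and 4.35 and 4.30 in islets. The groups overlapped, and the difference was 0.15 ± 0.23 (SE; limma adjusted p = 0.601) with a 95% interval of -0.38 to 0.68. It was -0.04 when arrays were scaled over probes detected on all arrays.

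Cspg4 encodes the NG2 proteoglycan, a marker of pericytes and of glial progenitors, and was the only one of the 10 genes called lower in clusters by its representative probe. Its signal was low throughout, with levels of -2.32 and -2.77 in clusters and -1.17 and -1.27 in islets. Both cluster values were below both islet values, by -1.32 ± 0.25 (SE; limma adjusted p = 0.00164), or 2.50-fold. Without islet replicate 1 the call was lost (-1.27, adjusted p = 0.056).

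Other markers of pericytes and smooth muscle moved in both directions, 4 higher and 4 lower of 10. Kcnj8, a potassium channel subunit of pericytes, was higher by 4.89 ± 0.25 (SE; limma adjusted p = 2.90e-07), and Tagln, an actin-binding protein of smooth muscle, was lower by -2.02 ± 0.35 (SE; adjusted p = 0.000994). Rgs5, a regulator of G protein signalling typical of pericytes, was lower by -1.71 ± 0.26 (SE; adjusted p = 0.000441). The summed level of the list was 11.8 and 9.90 in clusters and 16.7 and 30.0 in islets. Most of the islet sums came from Tagln, at 3.65 and 4.75 there, and their excess over clusters rests on that gene. Myh11 was not well above background on either cluster array. The part of these cells in the values of Cspg4, Mcam and Pdgfrb was not tested.

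Genes of the TGF-beta and BMP system around endoglin were mostly higher in clusters, as was Eng itself. Of 10 tested, 7 were higher, none was lower and 3 did not pass, with a median difference of 1.76 (1.51 with Gdf2 at its bound). Tgfbr3, the co-receptor betaglycan, was at 4.54 and 4.42 in clusters and at -1.52 and -1.41 in islets, a difference of 5.95 ± 0.23 (SE; limma adjusted p = 4.60e-08). Tgfb2, a ligand of the TGF-beta family, was higher by 3.83 ± 0.43 (SE; adjusted p = 5.81e-05). The ligands Tgfb1 and Tgfb3 were higher by less, 1.35 ± 0.23 and 1.66 ± 0.25 (SE; adjusted p = 0.000932 and 0.00037). Mmp14, the membrane protease that sheds endoglin, was higher by 3.32 ± 0.24 (SE; adjusted p = 2.75e-06). The signalling receptors Acvrl1 and Tgfbr1 did not pass, at 0.37 ± 0.25 and 0.22 ± 0.25 (SE; adjusted p = 0.232 and 0.478). Normexp background correction gave 5.34 for Tgfbr3, 3.18 for Tgfb2 and 2.57 for Mmp14, and Tgfb2 was 3.06 without islet replicate 1 and 4.60 without islet replicate 2.

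Around Nt5e the adenosine pathway moved in both directions, 4 genes higher and 5 lower of 11, with a median of -0.67. The receptors Adora2b and Adora2a were higher in clusters, by 5.88 ± 0.27 and 3.36 ± 0.23 (SE; limma adjusted p = 1.38e-07 and 2.06e-06), as was the nucleoside transporter Slc29a1 by 3.31 ± 0.23 (SE; adjusted p = 2.24e-06). Adora3 was higher by less, 1.57 ± 0.26 (SE; adjusted p = 0.000661). Adora1, an inhibitory receptor, was at 2.60 and 2.70 in islets and on neither cluster array well above background. It was thus at least 232-fold lower in clusters. Entpd3 and Entpd1, ectonucleotidases that break down ATP and ADP outside the cell, were also lower, by at least 107-fold and 17.3-fold, and both were not well above background in clusters. Adk and Enpp1 did not pass, at -0.67 ± 0.26 and 0.41 ± 0.24 (SE; adjusted p = 0.0549 and 0.169). With normexp background correction, which takes the dim genes below their bounds, Adora2b was at 4.55 (4.21 as the mean of its probes), Entpd3 at -4.08, Adora1 at -5.17 and Entpd1 at -1.99, and Adk and Enpp1 changed their call or sign under several processings.

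Among hyaluronan enzymes and other partners of CD44, 5 of 11 genes were higher, 5 lower and 1 did not pass, with a median of -0.69. Has1 and Has2, which make hyaluronan, were higher in clusters by 6.99 ± 0.23 and 3.14 ± 0.24 (SE; limma adjusted p = 2.31e-08 and 4.00e-06), and Has1 was 5.88 with normexp background correction. Spp1, the CD44 ligand osteopontin, was at 9.31 and 9.08 in clusters and at 6.26 and 6.17 in islets, a difference of 2.98 ± 0.23 (SE; adjusted p = 4.75e-06). Ezr, which ties CD44 to the actin cortex of epithelial cells, was lower by -5.53 ± 0.23 (SE; adjusted p = 7.36e-08). Msn and Rdx, also among these partners, were higher by 1.94 ± 0.24 and 0.69 ± 0.23 (SE; adjusted p = 0.000126 and 0.0311). Esrp1, an epithelial splicing factor known to promote inclusion of CD44 variable exons, was at -1.11 and -1.47 in clusters and at 4.02 and 4.24 in islets, a difference of -5.42 ± 0.25 (SE; adjusted p = 1.27e-07). Its relative Esrp2 was at -6.82 and -4.01 in clusters, well above background on 1 of the 2 arrays, and at 2.11 and 2.06 in islets, a difference of -7.50 ± 0.70 (SE; adjusted p = 1.62e-05) that was not called with a variance trend and robust fit. It was -4.37 with normexp background correction, -6.75 with a floor for dim signals, -6.10 without cluster replicate 1 and -8.91 without cluster replicate 2. Duct and acinar markers were lower in clusters as well, all 7 and all 11 of those tested, with summed levels of 1.02 and 1.50 in clusters against 176 and 142 in islets for ducts. Their part in the Cd44 probe differences was not tested.

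Integrins and other partners of VCAM1, THY1, ALCAM, MCAM and NG2 were higher in 6 of 12 tested genes, lower in 1 and did not pass in 5, with a median of 0.61. Itgb7, a subunit of a VCAM1-binding integrin, was higher by 3.15 ± 0.28 (SE; limma adjusted p = 1.25e-05), and Itga9, a subunit of another, by 3.07 ± 0.28 (SE; adjusted p = 1.47e-05). With normexp background correction these were 1.77 and 1.65. Itgb5, a subunit of a vitronectin receptor, was at 7.47 and 7.26 in clusters and at 4.41 and 4.50 in islets, a difference of 2.91 ± 0.23 (SE; adjusted p = 5.40e-06). Itgb2, a leukocyte subunit, was lower by -1.03 ± 0.30 (SE; adjusted p = 0.0164), a call that was lost in several processings, among them the replicate block (adjusted p = 0.0851). Itga4, whose product pairs with beta-1 to bind VCAM1, did not pass the filter on dim signals.

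Other surface markers used for stromal cells and fibroblasts did not move together: 8 of 19 tested were higher, 5 lower and 6 did not pass, with a median of 0.05. Pi16, a marker of adventitial fibroblasts, was at 7.43 and 7.18 in clusters and at -2.40 and -2.73 in islets, a difference of 9.87 ± 0.25 (SE; limma adjusted p = 5.91e-09). Cd248 (endosialin) and Pdpn (podoplanin) were higher by 5.93 ± 0.24 and 4.66 ± 0.27 (SE; adjusted p = 6.43e-08 and 6.20e-07). Ly6a, the Sca-1 antigen of mouse stromal progenitors and of endothelium, went the other way, at -0.28 and -0.52 in clusters against 5.18 and 6.01 in islets, a difference of -6.00 ± 0.30 (SE; adjusted p = 2.46e-07). Icam1 and Dpp4 were not well above background on either cluster array, where Icam1 was at least 32.0-fold and Dpp4 at least 7.37-fold lower. Fap and Itgb1 did not pass, at 0.32 ± 0.28 and -0.28 ± 0.23 (SE; adjusted p = 0.371 and 0.327). With normexp background correction Pi16 was 8.80, Cd248 5.33, Icam1 -2.59 and Dpp4 -1.10, and the values of Icam1 and Dpp4 are short of their bounds. In the list of fibroblast and stellate cell markers all 10 were higher, with a summed level of 2150 and 1806 in clusters against 49.6 and 57.2 in islets.

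The haematopoietic antigens counted as negative for stromal cells were lower in clusters in 9 of 12 genes, higher in 1 and did not pass in 2, with a median of -1.97 (-1.65 with dim genes at their bounds). Ptprc, the pan-leukocyte antigen CD45, was at -3.17 and -3.46 in clusters and at -2.45 and -1.88 in islets, low in both groups. Cd14 was also lower in clusters but bright in both groups, at 4.50 and 4.28 against 7.01 and 7.11 in islets. Kit, the stem cell factor receptor, was at least 212-fold lower in clusters, and H2-Eb1, an MHC class II chain, at least 14.0-fold lower, since neither was well above background there. Their measured differences of -8.53 and -5.28 were -4.98 and -1.73 with normexp background correction, which is short of these bounds. H2-Eb1 was -6.22 without islet replicate 1 and -4.33 without islet replicate 2. Ly6c1, an antigen of endothelium and monocytes, was lower by -5.65 ± 0.32 (SE; limma adjusted p = 5.60e-07), and by -4.60 as the mean of its probes. H2-Ab1, another class II chain, was higher, at 2.47 and 2.33 in clusters against -3.19 and -1.11 in islets. Its difference of 4.55 ± 0.54 (SE; adjusted p = 8.35e-05) was not called with a variance trend and robust fit. It was 5.58 without islet replicate 2 and 3.51 without islet replicate 1. Itgam, the myeloid integrin CD11b, was at 4.78 and 4.54 in clusters and 4.13 and 4.38 in islets and did not pass (adjusted p = 0.181), and neither did Cd79a (-0.58 ± 0.30, SE; adjusted p = 0.131). Macrophage markers were 2 higher and 2 lower of 6 tested, with summed levels of 5.41 and 4.42 in clusters and 14.4 and 30.2 in islets. Most of the islet sums came from Cd68, at 3.56 and 4.70 there. The part of macrophages in these values was not tested.

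**Figure D4:**
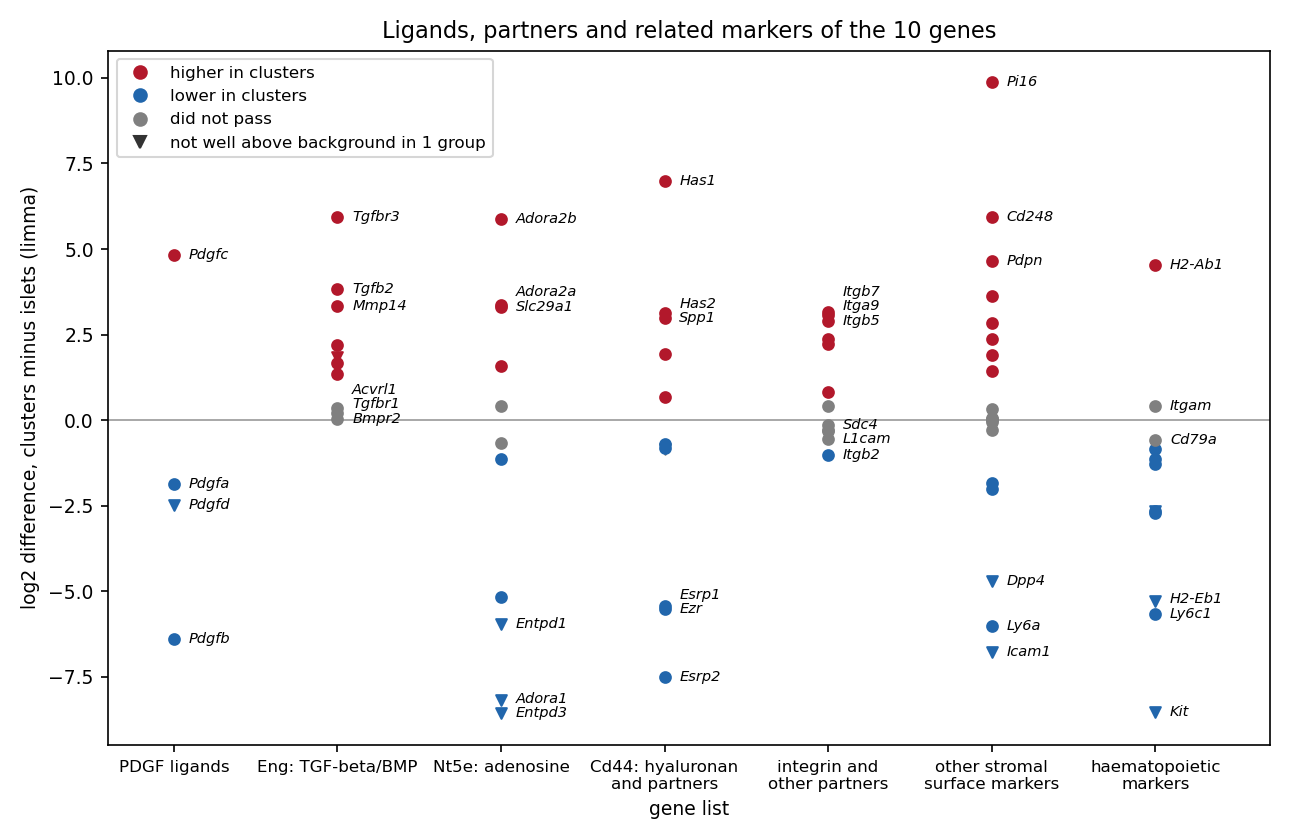
Log2 differences, clusters minus islets, of the tested genes in 7 lists around the 10 markers, each point 1 gene from the limma fit, with the 3 highest and 3 lowest genes of each list named (names are shifted where they would overlap). Genes of the TGF-beta and BMP list around Eng lie at or above 0 and haematopoietic antigens mostly below it. The other lists hold genes on both sides. Triangles are genes not well above background in 1 group, drawn at their measured difference, which is not their bound.

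The labelled cell types were checked against their defining genes. On the islet arrays 10 of 11 tested endocrine markers were higher than in clusters, with summed levels of 180 and 30.7 on islet replicates 1 and 2. Acinar markers summed to 3930 and 6125 there. The islet samples thus held exocrine RNA as well, for example Cpa1 at 9.47 and 9.83 and the duct marker Krt19 at 7.23 and 6.58. Every difference here is against such samples, and the part of exocrine RNA in the marker values was not tested. On the cluster arrays, whose sample titles call the clusters insulin producing, the endocrine list summed to 1.11 and 0.71. Ins1, at -3.35 and -3.58, and Ins2, at -0.82 and -1.70, were well above background on both cluster arrays. So were Sst, Nkx6-1, Chga and Chgb, while Gcg, Ppy, Iapp, Pdx1 and Slc2a2 were not well above background on either. Erythroid markers were lower in clusters in all 3 tested, lymphocyte markers in none of 2, and neural markers were higher in 2 and lower in 1 of 6. Of 59305 non-control spots per array, 59.7% to 63.6% were well above background and none was saturated, and Pearson's r across genes was 0.985 between cluster arrays, 0.989 between islet arrays and 0.796 to 0.810 between groups. Islet replicate 1 minus islet replicate 2 was a median of 2.02 on the log2 scale for endocrine markers, -1.33 for macrophage markers and -3.01 for erythroid markers. The same difference was 1.02 for Nt5e, 0.81 for Cd44 and 0.80 for Pdgfrb. The part of these differences between islet arrays in the marker values was not tested.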

How the data were processed

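RNA of 2 cluster and 2 islet samples was copied from an oligo-dT primer (500 ng), labelled with Cy3 and hybridised, per the labels. Agilent Feature Extraction 11.5.1.1 made the deposited spot intensity values, per the file headers. It subtracted background and detrended the processed signal, and probe positions are on mm9. The software's flags were used as given. The authors' deposited value table holds log2 values, which correlated with the scanner values at r = 0.99995 or higher with an offset near each array's 75th percentile, and had column medians of -3.61, -3.70, -3.50 and -3.37. It served as an alternative only.

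The 75th percentile of an array over its non-control probes was subtracted from the log2 processed signal. Control and non-uniform spots were left out, spots of a probe were averaged, and 490 probes without a value on every array were dropped. A probe was kept if both arrays of 1 group or more had it well above background (34974 probes), and each gene name was represented by its brightest probe (24596 genes). Groups came from the titles. Their 2-sided comparison, without covariates, used lmFit and eBayes of limma 3.58.1 (R 4.3.3), with Benjamini-Hochberg adjustment over all genes, or over all probes for values of single probes, and a threshold of 0.05. An exact permutation test of 2 arrays against 2 cannot go below p = 0.333 and was not used. A probe not well above background on either array of a group has only a bound, written as "at least": the mean of the bright group against, in the dim group, the mean of the higher of the array's lowest well-detected signal and the probe's own. These bounds hold for the main processing only. The ratio test of probe pairs was added after the data had been seen. All arrays share 1 slide and 1 scan, and their number limits the precision of every value. Samples were treated as unpaired. The deviations of same-numbered samples correlated at -0.02, which with 2 arrays per group cannot show whether such samples share a pool of mice.

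The members and the lists were chosen with earlier results of these data known. Named were all members, up to 3 called genes per direction and up to 2 not passing in each list, the 2 genes nearest to Eng, Thy1 and Nt5e, and markers of other cell types. Some further genes of the lists, among them Ptprc and Adora3, were named outside this rule. Scripts were tested on simulated data. Alternatives were other background corrections, scalings, filters, probe summaries and variance models, the authors' values, a replicate block and leaving out each array. Normexp background correction was run with an offset of 50 signal units added to every spot. By construction this offset shrinks the differences of dim probes.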

Additional observations from a re-analysis of the deposited data

How the results depend on the processing

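The 6 genes called higher in clusters (Thy1, Pdgfra, Pdgfrb, Nt5e, Eng and Vcam1) kept their direction and their call in each of 16 alternatives. The genes near 0 did not. Cd44 turned to 0.070 with median scaling and was called at -2.48 as the mean of its probes, and its values without single arrays ran from -0.53 to 0.28. Mcam was called at -0.42 when scaled over probes detected on all arrays and at -1.61 as the mean of its probes, and Alcam turned to -0.036 under the former. Cspg4 lay between -1.54 and -1.10 without single arrays, and its call was lost without islet replicate 1 (-1.27, adjusted p = 0.056). The count of the 10 genes called lower, 1 as reported, was therefore 2 when scaled over probes detected on all arrays, 3 with the mean of the probes and 0 to 1 without single arrays. Among other named genes Enpp1 turned to -0.59 with the mean of its probes and Fap lay between -0.041 and 0.67 without single arrays. Over all genes 3909 to 5404 were called higher and 3741 to 5442 lower without single arrays, against 6545 and 6945. Median scaling moved the median of all genes by 0.20 and the share of calls that were higher from 48.5% to 58.1%, and scaling over detected probes moved the median by -0.19.

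With the replicate number as a block 11307 genes were called, 5729 of them higher, and of the 10 markers and 43 genes of the surrounding lists refitted this way only Itgb2 lost its call (adjusted p = 0.0851). The fit without 1 array assumes that the lone array varies like the other group. Dim probes limit the downward differences: normexp background correction gave smaller ones for the genes near background beside which its value is given.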
